A study of Arabidopsis thaliana with 5 samples.

Results

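Late embryogenesis abundant (LEA) protein genes were followed in RNA of purified endosperm nuclei of Arabidopsis thaliana. The 51 genes were taken by their AGI identifiers from a table of 33602 genes, and every one of them had a value in all 5 libraries. They were grouped into 9 classes by the protein family they belong to: 10 dehydrins, 3 of LEA_1, 3 of LEA_2, 4 of LEA_3, 18 of LEA_4, 2 of LEA_5 (the Em proteins), 2 AtM genes, 6 of the seed maturation protein (SMP) family and 3 of PvLEA18. The study made reciprocal crosses of the accessions Col and Ler to compare the maternal and paternal contribution to transcripts. Here the alleles were summed and only total levels were used.

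All seeds were taken from siliques at 4 days after pollination (4 DAP). In Col × Ler, where the mother is written first, the mother was the INT line in the dde2 background (Col) and the pollen came from Ler. In Ler × Col, pistillata mutants in Ler were pollinated with the INT line (Col). Both mothers were thus male-sterile mutants, and both crosses carried PHE1::NTF and PHE1::BirA, which tag the nuclei in which the PHE1 promoter is active with biotin so that they can be captured (INTACT). The transgenes came from the mother in Col × Ler and from the father in Ler × Col, so that the direction of the cross, the sterility mutation and the parent of the transgenes cannot be told apart. Replicates 2 and 3 of Col × Ler and replicates 1, 2 and 3 of Ler × Col were available, numbered as in the sample descriptions. By the study's methods the first replicates started from more silique material than the later ones, and the first replicates of both directions were set aside after an estimate of contamination, although they also state that 3 replicates of Ler × Col were merged, and replicate 1 of Ler × Col is in the table. The library called Col × Ler replicate 2 here is numbered 1 in its sample title, and whether it is one of these first replicates cannot be told from the sources.

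LEA proteins are small, very hydrophilic and mostly disordered proteins that accumulate in seeds as they mature and dry, where they protect membranes and enzymes from water loss. Many of their genes respond to abscisic acid (ABA) through bZIP factors such as ABI5, which bind ABA-responsive elements with an ACGTG core, and several respond to cold or drought through CBF and DREB factors, which bind C-repeat elements with a CCGAC core. At the stage studied here the endosperm is still young and the seed has not entered maturation.

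Because the results below separate genes of very different pattern, the 250 bases upstream of the annotated start of 5 of them are shown first. RAB18, EM6 and AT3G15670 had the greatest excess in one library, COR15A was listed at 0 in that library, and HIRD11 had the highest level of all. Sequences were read from the RefSeq assembly TAIR10.1, 5′ to 3′ on the strand of the gene, and all 5 genes lie on the minus strand. They cover chr5:26519448-26519697 (RAB18), chr2:16780369-16780618 (EM6), chr3:5310989-5311238 (AT3G15670), chr2:17712331-17712580 (COR15A) and chr1:20310851-20311100 (HIRD11). Capitals mark ACGTG and CCGAC on either strand, so that the reverse complements CACGT and GTCGG are capitals as well, and CACGTG is an ACGTG match on both strands.
RAB18: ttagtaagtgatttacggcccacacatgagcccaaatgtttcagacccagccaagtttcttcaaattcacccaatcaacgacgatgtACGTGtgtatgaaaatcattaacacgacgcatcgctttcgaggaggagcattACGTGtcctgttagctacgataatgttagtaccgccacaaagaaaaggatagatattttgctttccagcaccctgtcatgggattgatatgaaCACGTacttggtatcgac
EM6: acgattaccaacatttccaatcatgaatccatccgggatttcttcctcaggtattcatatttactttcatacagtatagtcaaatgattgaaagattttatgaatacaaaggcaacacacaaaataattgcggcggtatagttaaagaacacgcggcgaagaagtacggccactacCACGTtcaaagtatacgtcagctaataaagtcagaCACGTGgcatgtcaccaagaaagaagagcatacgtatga
AT3G15670: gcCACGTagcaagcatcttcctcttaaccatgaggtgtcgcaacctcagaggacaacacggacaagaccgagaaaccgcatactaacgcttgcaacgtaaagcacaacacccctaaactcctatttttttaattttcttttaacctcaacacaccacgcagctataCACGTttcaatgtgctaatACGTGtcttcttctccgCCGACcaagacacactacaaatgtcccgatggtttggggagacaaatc
COR15A: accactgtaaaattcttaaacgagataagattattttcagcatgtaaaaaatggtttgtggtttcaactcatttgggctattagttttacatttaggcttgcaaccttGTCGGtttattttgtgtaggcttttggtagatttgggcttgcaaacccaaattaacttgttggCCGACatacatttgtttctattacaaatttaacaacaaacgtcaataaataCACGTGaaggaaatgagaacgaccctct
HIRD11: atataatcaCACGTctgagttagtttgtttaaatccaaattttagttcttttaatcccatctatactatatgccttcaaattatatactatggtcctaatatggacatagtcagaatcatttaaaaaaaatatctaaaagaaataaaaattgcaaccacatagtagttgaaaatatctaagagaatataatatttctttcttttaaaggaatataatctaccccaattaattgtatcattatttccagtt
RAB18 and AT3G15670 each showed 3 separate ACGTG matches in this stretch, EM6 had 2, and COR15A and HIRD11 had 1 each. COR15A was the member shown with 2 CCGAC matches.

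Values are given as RPKM (read counts divided by the length of the gene and by the depth of its library), so that levels of different genes can be set side by side, and in the order Col × Ler replicates 2 and 3, then Ler × Col replicates 1, 2 and 3. The libraries were not alike over the whole table. Their depth, read from the steps between low values of tRNA genes, was between 12544671 and 28539345 reads, and was lowest in Col × Ler replicate 2. The share of all genes listed at 0 was 36.9% and 5.42% in Col × Ler and 1.93%, 32.1% and 9.8% in Ler × Col, so both libraries numbered 2 had many empty genes and Ler × Col replicate 1 had almost none. Shares over the whole table include tRNA genes, whereas every LEA member encodes a protein. Of 10 endosperm markers, between 8 and 10 had an RPKM of at least 1 in each library, and PHE1 itself, the MADS-box gene whose promoter drove the tags, was between 29.7 and 51 RPKM. Seed coat markers summed to 31.9 and 188 RPKM in Col × Ler and to 179, 23.3 and 218 RPKM in Ler × Col. The part of these differences in the results on LEA genes was not tested. In such bulk samples, fewer cells of a type and less RNA per cell cannot be told apart. The study's methods call the replicates biological, but no source says that they came from separate plants. The p-values thus measure the spread between these samples.

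LEA transcripts were present in all libraries, but their number and their levels varied. An RPKM of at least 1 was reached by 41 and 41 of the 51 genes in Col × Ler and by 51, 28 and 36 in Ler × Col. The share of all genes that reached it varied too, with 54.6% and 73% in Col × Ler and 92.4%, 49.4% and 64.9% in Ler × Col. The median LEA gene stood at 24.1 and 3.14 RPKM in Col × Ler and at 11.8, 1.17 and 2.87 RPKM in Ler × Col. The median of all genes was 1.91, 4.47, 8.96, 0.952 and 3.4 RPKM in the same order. The median LEA gene therefore lay far above the median of all genes in Col × Ler replicate 2, and within a factor of 2 of it in the other 4 libraries. On the scale of log2(RPKM + 1), the mean LEA level was 4.39 and 2.98 in Col × Ler and 4.38, 2.14 and 2.76 in Ler × Col, against 2.09, 2.71, 3.27, 1.58 and 2.52 over all genes.

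**Figure D1:**
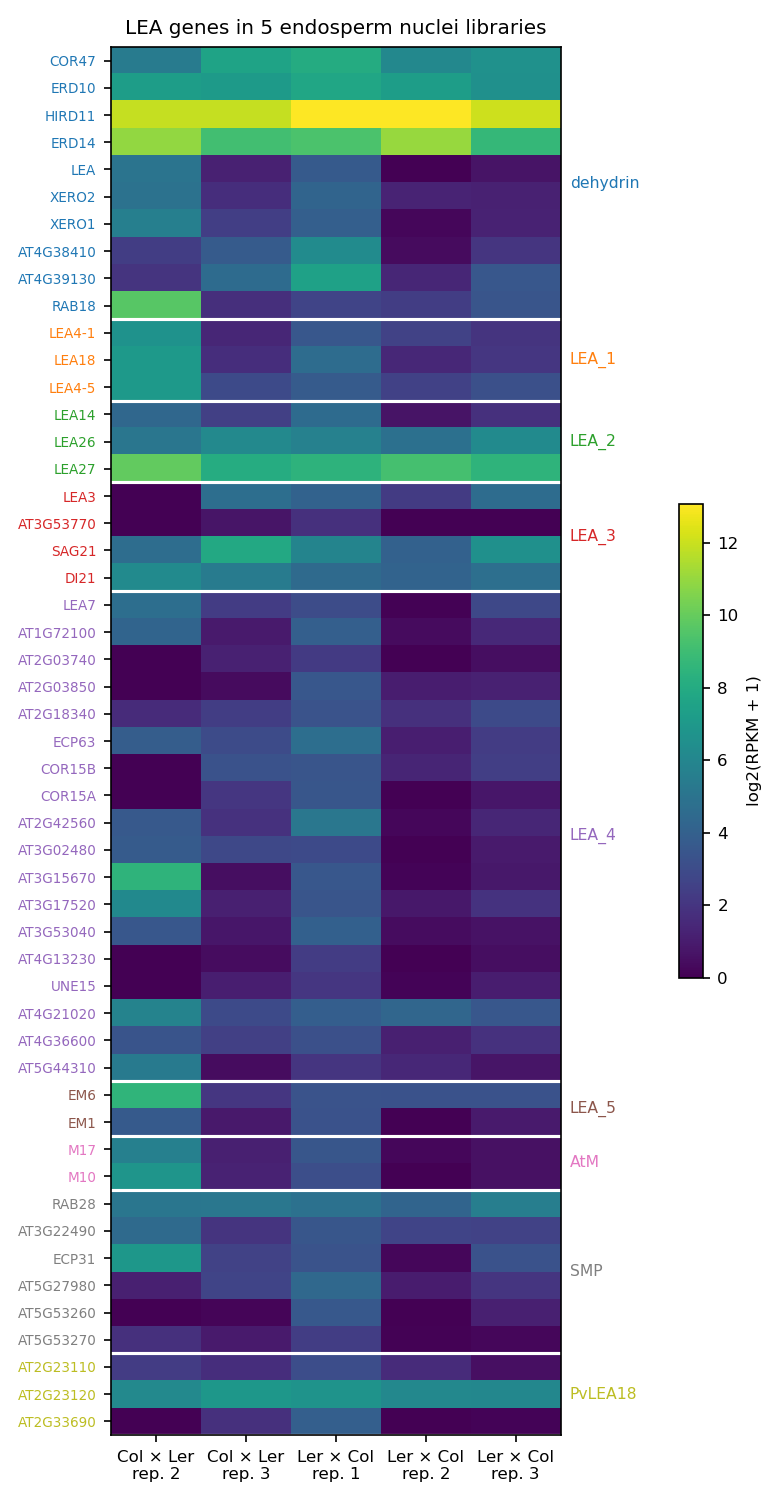
Level of each of the 51 LEA genes (lines, coloured by class) in the 5 libraries (columns), as log2(RPKM + 1) by colour. HIRD11 is bright in every library, whereas RAB18, the LEA_1 genes, EM6 and AT3G15670 are bright in Col × Ler replicate 2.

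A few members carried most of the LEA transcripts. HIRD11 (AT1G54410), a small histidine-rich dehydrin that binds metal ions, had 3930 and 3906 RPKM in Col × Ler and 8342, 8592 and 4243 RPKM in Ler × Col. It ranked between 2 and 6 among all genes in every library and made up 39.5% of the summed LEA RPKM in Col × Ler replicate 2 and between 68.4% and 77.2% in the others. Its levels in Col × Ler (3918 ± 17.5 RPKM, SD, n = 2) lay below all those in Ler × Col (7059 ± 2442 RPKM, SD, n = 3), although this difference did not pass limma's test given below. ERD14 (AT1G76180), an acidic dehydrin induced by dehydration, followed with 1965 and 543 RPKM in Col × Ler and 663, 2146 and 423 RPKM in Ler × Col. The libraries numbered 2 of both crosses were the high ones for ERD14, and the crosses overlapped. LEA27 (AT2G46140) of the LEA_2 class, whose members fold into a stable domain unlike most LEA proteins, had 970 and 269 RPKM in Col × Ler and 352, 599 and 366 RPKM in Ler × Col, again with both libraries numbered 2 on top.

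Of the acidic dehydrins of the cold and dehydration response, ERD10 was steady and COR47 was not. ERD10 (AT1G20450) had 152 and 140 RPKM in Col × Ler and 212, 156 and 93.2 RPKM in Ler × Col, a range of 2.28 times between the lowest and the highest library. COR47 (AT1G20440), its neighbour on chromosome 1 at a distance of 1029 bases, had 43 and 189 RPKM in Col × Ler and 258, 68.6 and 95.8 RPKM in Ler × Col. COR47 ranged over 6.01 times and was lowest in the libraries numbered 2, whereas ERD10 stayed between its lowest and highest values there. Reads of such close relatives may have been split between them by the counting.

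Some of the other members kept a moderate level throughout, and others varied more. RAB28 (AT1G03120), an SMP family member named after an ABA-responsive maize gene, had 33.8 and 35.1 RPKM in Col × Ler and 28.7, 17.8 and 46.7 RPKM in Ler × Col. LEA26 (AT2G44060) of the LEA_2 class had 34.1 and 70.2 RPKM in Col × Ler and 52.8, 27.3 and 74.6 RPKM in Ler × Col. AT2G23120 of the PvLEA18 class had 70.8 and 121 RPKM in Col × Ler and 103, 67.8 and 65.9 RPKM in Ler × Col. For these genes the highest library was between 1.84 and 2.74 times the lowest, and the crosses overlapped. In the LEA_3 class, DI21 (AT4G15910), a drought-induced gene, had 75.9 and 42.3 RPKM in Col × Ler and 22.1, 16.9 and 26.5 RPKM in Ler × Col. DI21 was the only member for which both Col × Ler libraries lay above all Ler × Col libraries (1.96% of members, against 4.75% of all genes), while HIRD11 and AT2G03850 lay below (3.92%, against 1.89% of all genes). SAG21 (AT4G02380), a mitochondrial LEA_3 protein induced in senescence and oxidative stress, had 24.1 and 232 RPKM in Col × Ler and 57.8, 15.6 and 95 RPKM in Ler × Col, and was highest in Col × Ler replicate 3. Between the lowest and the highest library, SAG21 ranged over 14.9 times and DI21 over 4.48 times.

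The members were to be split into those seen only in Col × Ler replicate 2 and those present in all libraries. With an RPKM of at least 1 as the limit, 23 of the 51 genes (45.1%) were seen in every library, close to the 44.1% of all genes. With other limits, 37 members were above 0 RPKM in every library (57.6% of all genes), 25 were at 0.5 RPKM or more (49.3% of all genes) and 11 at 5 RPKM or more (24.1% of all genes). None was seen only in Col × Ler replicate 2, where 0.167% of all genes were. Ler × Col replicate 1 listed all 51 members at 1 RPKM or more, with a lowest value of 2.51 RPKM. Without that library, AT3G15670, AT3G53040, EM1 and AT5G53270 were seen only in Col × Ler replicate 2 (7.84%, against 1.08% of all genes). At a limit of 5 RPKM, AT5G44310 alone was seen only in Col × Ler replicate 2 with all 5 libraries (1.96%, against 0.693% of all genes), and 15 members were without Ler × Col replicate 1 (29.4%, against 1.8% of all genes), an alternative chosen after the data were seen. Seen only in Ler × Col replicate 1 were AT3G53770 and AT4G13230 (3.92%, against 16.5% of all genes).

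Presence thus hid a difference in level. Of the 51 members, 23 had their highest RPKM in Col × Ler replicate 2 (45.1%), whereas 9.06% of all genes did with 1 RPKM or more. Ler × Col replicate 1 was highest for 21 members (41.2%), with 52.2% of all genes. The other libraries were highest for 3 members in Col × Ler replicate 3 (15.7% of all genes), 2 in Ler × Col replicate 2 (2.41% of all genes) and 2 in Ler × Col replicate 3 (13.9% of all genes). A level of at least 5 times that of the next library, a limit chosen after the values were seen, was reached in Col × Ler replicate 2 by 10 members (19.6%) and by 0.327% of all genes. LEA18 lay just inside this limit at 5.68 times and M17 just outside at 4.8 times. At 10 times there were 7 members (13.7%, against 0.134% of all genes), and without Ler × Col replicate 1 there were 16 (31.4%, against 0.464% of all genes). Since 1 library has no replicate, these counts describe that library and carry no test.

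**Figure D2:**
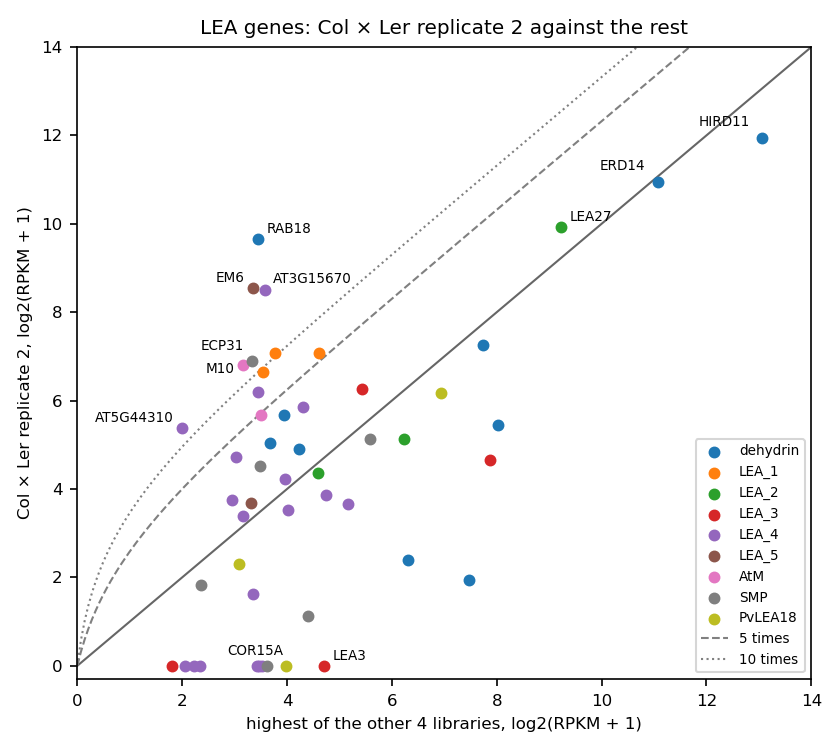
Level of each LEA gene in Col × Ler replicate 2 (vertical) against its highest level in the other 4 libraries (horizontal), both as log2(RPKM + 1). The solid line marks equal levels, and the broken and dotted lines mark 5 and 10 times the level. RAB18 lies farthest above them at 81.6 times, and 10 genes lie at 0 on the vertical axis.

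The 10 members above 5 times came from 6 classes. RAB18 (AT5G66400), the ABA-responsive dehydrin often used as a marker of ABA action, had 809 and 2.38 RPKM in Col × Ler and 5.44, 4.12 and 9.91 RPKM in Ler × Col. In Col × Ler replicate 2 it was 81.6 times above the next library and ranked 84 among all genes. EM6 (AT2G40170), an Em protein gene of maturing embryos, had 373 and 3.14 RPKM in Col × Ler and 9.23, 8.87 and 8.67 RPKM in Ler × Col. The Ler × Col values of EM6 were nearly equal (8.93 ± 0.284 RPKM, SD, n = 3), so that a single library stood apart by 40.4 times. AT3G15670 of the LEA_4 class had 364 and 0.405 RPKM in Col × Ler and 10.9, 0.0965 and 0.824 RPKM in Ler × Col. By the recovered depth these values correspond to about 4660, 11, 284, 2 and 24 reads, so that in 3 of the libraries the level rested on few reads.

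All LEA_1 genes belonged to this group. LEA4-5 (AT5G06760), which protects enzymes during drying in vitro, had 134 and 6.54 RPKM in Col × Ler and 12.7, 4.77 and 7.98 RPKM in Ler × Col. LEA18 (AT2G35300) had 133 and 2.32 RPKM in Col × Ler and 23.4, 1.72 and 3.17 RPKM in Ler × Col. LEA4-1 (AT1G32560) had 100 and 1.67 RPKM in Col × Ler and 10.7, 5.02 and 2.87 RPKM in Ler × Col. The 3 genes thus shared one high library, and Ler × Col replicate 1 was second for each.

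ECP31 (AT3G22500), an SMP family gene named after an embryogenic cell protein of carrot, had 119 and 5.05 RPKM in Col × Ler and 9.07, 0.178 and 8.89 RPKM in Ler × Col. Its neighbour AT3G22490, 781 bases away and of the same family, had 22.1 and 2.9 RPKM in Col × Ler and 10.2, 5.52 and 4.92 RPKM in Ler × Col. Both SMP neighbours were highest in Col × Ler replicate 2, ECP31 by 13.1 times and AT3G22490 by 2.18 times. M10 (AT2G41280), a transcript of late embryogenesis, had 111 and 1.37 RPKM in Col × Ler and 7.93, 0 and 0.524 RPKM in Ler × Col, and M17 (AT2G41260), 1998 bases from it, had 49.9 and 1.18 RPKM in Col × Ler and 10.4, 0.182 and 0.487 RPKM in Ler × Col. AT5G44310 of the LEA_4 class had 40.6 and 0.354 RPKM in Col × Ler and 3, 1.75 and 0.659 RPKM in Ler × Col. AT3G17520 of the same class had 72.5 and 1.25 RPKM in Col × Ler and 9.87, 0.819 and 2.79 RPKM in Ler × Col. Outside Col × Ler replicate 2, the highest value among these 6 genes was the 10.4 RPKM of M17.

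The members with the same highest library but a lower excess included the dehydrins XERO1, AT2G21490 and XERO2. XERO2 (AT3G50970), a cold-induced dehydrin, had 29.1 and 2.32 RPKM in Col × Ler and 17.8, 1.45 and 1.26 RPKM in Ler × Col, and XERO1, 313 bases away, had 49.7 RPKM in Col × Ler replicate 2 and 14.4 RPKM in Ler × Col replicate 1. AT4G21020 of the LEA_4 class had 57.3 and 6.62 RPKM in Col × Ler and 14.2, 18.8 and 10.9 RPKM in Ler × Col. AT4G36600, also LEA_4, had 9.48 and 4.66 RPKM in Col × Ler and 7.99, 1.2 and 2.58 RPKM in Ler × Col. Over all 23 members with this highest library, the excess over the next library ranged from 1.19 to 81.6 times with a median of 3.54. EM1 (AT3G51810), the second Em gene, had 11.9 and 0.836 RPKM in Col × Ler and 8.96, 0 and 0.935 RPKM in Ler × Col, an excess of 1.33 times, unlike its relative EM6.

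Other members were listed at 0 in the same library, which was less frequent among LEA genes than over all genes of the table, which do not all encode proteins. In Col × Ler replicate 2 these were 10 members (19.6%, against 36.9% of all genes). COR15A (AT2G42540), a cold-induced protein that stabilises chloroplast membranes, had 0 and 3.14 RPKM in Col × Ler and 10.1, 0 and 0.743 RPKM in Ler × Col. COR15B (AT2G42530), its tandem copy 7 bases away, had 0 and 8.63 RPKM in Col × Ler and 9.82, 1.51 and 4.4 RPKM in Ler × Col. Both copies were thus listed at 0 where RAB18 was highest, although reads of the pair may have been split by the counting. LEA3 (AT1G02820) of the LEA_3 class, named together with the COR15 genes after its values were seen, had 0 and 25.1 RPKM in Col × Ler and 16.3, 3.76 and 23.7 RPKM in Ler × Col. The other members at 0 were AT3G53770, AT2G03740, AT2G03850, AT4G13230, UNE15, AT5G53260 and AT2G33690. AT3G53770 had 0 and 0.663 RPKM in Col × Ler and 2.51, 0 and 0 RPKM in Ler × Col. AT2G03850 of the LEA_4 class had 0 and 0.299 RPKM in Col × Ler and 10.5, 1.05 and 1.26 RPKM in Ler × Col. It was lower in both Col × Ler libraries than in all Ler × Col libraries, as were 1.89% of all genes. By the recovered depth its values correspond to about 0, 7, 229, 18 and 31 reads, so that this gap rested on few reads. AT4G13230 had 0 and 0.375 RPKM in Col × Ler and 4.09, 0 and 0.407 RPKM in Ler × Col. In Ler × Col replicate 2, the other library with many empty genes, 10 members were listed at 0 as well (19.6%, against 32.1% of all genes), and M10, EM1, AT2G21490 and AT3G02480 were among them.

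Ler × Col replicate 1 was the highest library for most remaining members. AT4G39130, a dehydrin, had 2.86 and 22.4 RPKM in Col × Ler and 177, 1.67 and 10.8 RPKM in Ler × Col, an excess of 7.91 times over the next library. ECP63 (AT2G36640), named after a carrot embryogenic cell protein, had 13.6 and 6.85 RPKM in Col × Ler and 25.8, 1.17 and 3.94 RPKM in Ler × Col. AT2G18340 of the LEA_4 class had 2.07 and 4.17 RPKM in Col × Ler and 9.14, 2.56 and 6.6 RPKM in Ler × Col. AT5G27980 of the SMP family had 1.19 and 5.5 RPKM in Col × Ler and 20, 1 and 3.09 RPKM in Ler × Col. In that library 6 members reached 5 times the next library (11.8%), less than the 19.4% of all genes that did.

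Other gene groups of the seed were read in the same libraries. The 10 storage protein and oleosin genes encode the albumins, globulins and oil body proteins laid down in maturation. All 10 were highest in Col × Ler replicate 2 (9.06% of all genes), by 2.75 to 42.8 times over the next library. At least 5 times was reached by 8 of them (0.327% of all genes). The summed level of all 10 was 1899 and 26.5 RPKM in Col × Ler and 139, 39.7 and 12.8 RPKM in Ler × Col. The regulators of maturation did not share this pattern as a group. Of 10 regulators, 4 were highest in that library (9.06% of all genes), by 1.05 to 3.22 times, and 0 reached 5 times. Ler × Col replicate 1 was highest for 3 regulators (52.2% of all genes). ABI4 was lowest in Col × Ler replicate 2, at 3.72 RPKM. WRI1 was highest in Ler × Col replicate 2, at 1564 RPKM against 969 RPKM in Col × Ler replicate 2. ABI5, the bZIP factor of the ABA response in seeds, had 5.33 and 2.91 RPKM in Col × Ler and 5.09, 0.973 and 3.08 RPKM in Ler × Col. ABI3, a B3 domain factor needed for maturation, had 4.51 and 0.881 RPKM in Col × Ler and 7.91, 1.07 and 1.15 RPKM in Ler × Col. FUS3, of the same family, had 15.2 and 20.3 RPKM in Col × Ler and 4.56, 1.07 and 9.37 RPKM in Ler × Col. Of these 3 regulators ABI5 was highest in Col × Ler replicate 2, by 1.05 times. LEC1, a subunit of the NF-Y complex in embryos, had 105 and 78.8 RPKM in Col × Ler and 10.9, 16.8 and 78.3 RPKM in Ler × Col.

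Regulators and targets of the cold, drought and ABA response outside the LEA families did not move as one in Col × Ler replicate 2. Of 9 cold and drought regulators, 3 were listed at 0 there (36.9% of all genes) and DREB2A was highest there, by 1.09 times. Of 6 induced genes, KIN1 was listed at 0 and RD29B, an ABA-responsive gene, was highest there (9.06% of all genes), by 2.24 times. RD29B had 19.1 and 1.39 RPKM in Col × Ler and 8.49, 1.08 and 2.76 RPKM in Ler × Col. CBF1, CBF2 and CBF3, which encode factors of the cold response, were each listed at 0 in Col × Ler replicate 2, and reached 5.42, 16.9 and 12.1 RPKM in Ler × Col replicate 1. KIN1, a cold-induced gene, had 0 and 1.1 RPKM in Col × Ler and 9.69, 0 and 0.0638 RPKM in Ler × Col. KIN2, its relative, had 4.82 and 5.79 RPKM in Col × Ler and 21.6, 2.05 and 25.9 RPKM in Ler × Col. RD29A, induced by cold and drought, had 0.191 and 2.51 RPKM in Col × Ler and 11.8, 1.69 and 2.68 RPKM in Ler × Col. CBF1, CBF2, CBF3, KIN1, RD20 and RD29A were at their lowest or tied for it in Col × Ler replicate 2. The other genes of these lists, namely DREB2A, ABF1, ABF2, ABF3, ABF4, ICE1, KIN2, RD22 and RD29B, were not at their lowest there. Of all genes, 36.9% were listed at 0 in that library, and these were at their lowest or tied for it as well. The full share of all genes at their lowest there was not counted, so no trait of these lists is read from this.

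Markers of other seed tissues were compared in the same way. Of 7 embryo markers, 3 were listed at 0 in Col × Ler replicate 2, where 36.9% of all genes were, and the list summed to 66.9 and 138 RPKM in Col × Ler and 114, 26.4 and 110 RPKM in Ler × Col. In Col × Ler replicate 2, WOX8 alone gave 65.4 RPKM of that sum, PLT2, STM and WUS were listed at 0, and WOX2 had 1.41 RPKM. PLT2 and WUS were also listed at 0 in Ler × Col replicate 2, as was WOX2. Of 10 seed coat markers, 3 were listed at 0 in Col × Ler replicate 2. None of the embryo or seed coat markers was highest in that library, where 9.06% of all genes were, and counts on lists this short differ little from that share. Photosynthesis markers summed to 2128 and 4354 RPKM in Col × Ler and to 2012, 592 and 3429 RPKM in Ler × Col, and all 6 were highest in Col × Ler replicate 3. Markers of the late embryo were not among these lists apart from the storage protein and oleosin genes themselves.

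**Figure D3:**
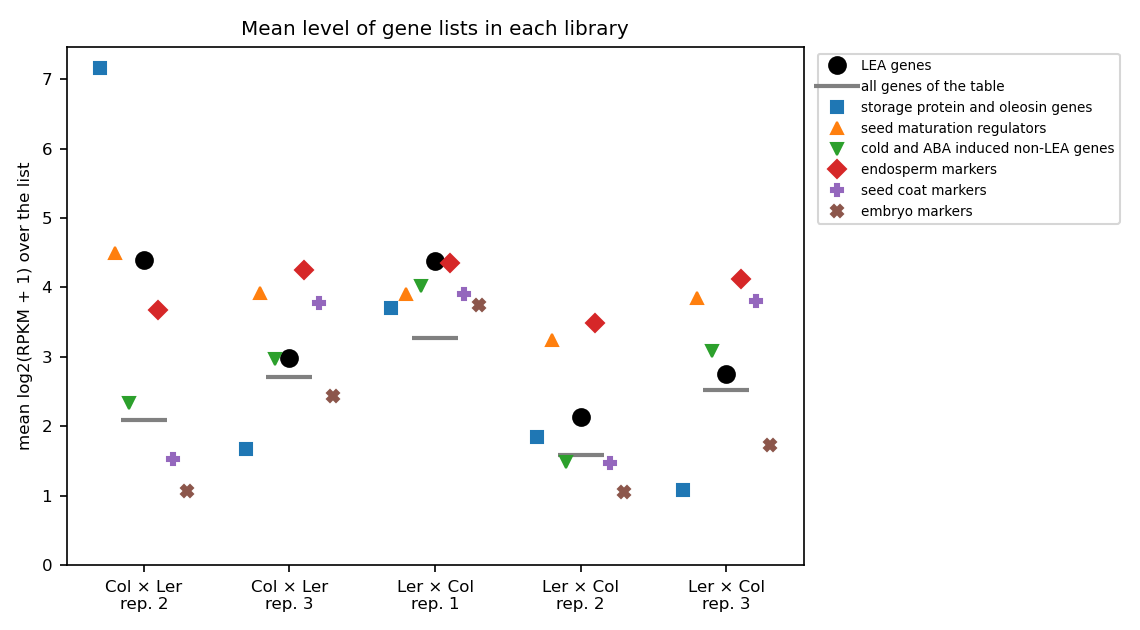
Mean log2(RPKM + 1) over 6 gene lists (symbols) in the 5 libraries, with the LEA genes as black circles and all genes of the table as grey bars. Storage protein and oleosin genes lie at 7.16 in Col × Ler replicate 2 and at 1.08 in Ler × Col replicate 3, and the embryo markers lie at 1.07 in Col × Ler replicate 2.

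Levels were also set side by side by replicate number. For 8 members both libraries numbered 2 lay above both libraries numbered 3 (15.7%, against 3.19% of all genes), namely ERD10, ERD14, LEA27, LEA4-1, AT4G21020, AT5G44310, EM6 and AT3G22490. For EM6 (8.87 and 8.67 RPKM) and AT3G22490 (5.52 and 4.92 RPKM) the replicates 2 and 3 of Ler × Col were close, and the gap lay in Col × Ler. For 15 members both lay below (29.4%, against 60% of all genes), among them COR47, SAG21, LEA3, RAB28, COR15A and COR15B. The sources do not say that libraries of the same number shared a day or a batch. The numbers in the sample titles differ from those in the descriptions for Col × Ler.

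The crosses were then compared by limma on log2(RPKM + 1), with p-values adjusted over the 25579 genes that reached 1 RPKM in 2 or more libraries. Over all genes, 1 was higher and 1 lower in Col × Ler (0.00391% each) at an adjusted p under 0.05. Of the 51 members 49 were tested, since AT3G53770 and AT4G13230 did not pass the filter, and 0 were called. Every member tested had an adjusted p of 0.99997. By unadjusted p under 0.05, 6 members were higher in Col × Ler (12.2% of those tested, against 0.899% of all genes) and 0 were lower (0.141% of all genes). The log2 fold change of Col × Ler over Ler × Col was positive for 36 members (73.5%, against 54.8% of all genes) and negative for 13, with a median of 0.51 against 0.10 over all genes. Fold changes on this scale understate those of genes at low RPKM. In the other gene lists, which held between 6 and 10 genes, 0 were called by limma. AT2G03850 had the lowest value of the LEA genes at -1.72 and AT3G15670 the highest at 2.98.

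The 6 members with an unadjusted p under 0.05 were all among the 10 that reached 5 times the next library in Col × Ler replicate 2. LEA4-1, LEA18, AT3G17520 and AT5G44310 reached 5 times as well, but their unadjusted p was above 0.05. RAB18 had a log2 fold change of 2.88 ± 0.89 (SE) in limma's fit, with an unadjusted p of 0.00128, and a mean of 405 ± 570 RPKM (SD, n = 2) in Col × Ler against 6.49 ± 3.03 RPKM (SD, n = 3) in Ler × Col. AT3G15670 followed at 2.98 ± 1.18 (SE), and M10 at 2.77 ± 1.25, ECP31 at 2.46 ± 1.04, EM6 at 1.99 ± 0.87 and LEA4-5 at 1.84 ± 0.91 completed the set. In each of them the SD within Col × Ler exceeded the mean of Col × Ler, and Col × Ler replicate 3 lay within or below the range of Ler × Col. HIRD11, by contrast, had close values in both Col × Ler libraries and a log2 fold change of -0.78 ± 1.98 (SE).

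Without Col × Ler replicate 2, which leaves replicate 3 as the only library of that cross, 45 members could be fitted. Of these, 22 had a positive log2 fold change (48.9%, against 74% of all genes) and 23 a negative one. Their median was -0.01, against 0.45 over all genes. RAB18 then had a log2 fold change of -1.07 and EM6 one of -1.26, the opposite direction from the fit with all libraries. Without Col × Ler replicate 3, replicate 2 is the only library of that cross and is assumed to vary like the Ler × Col libraries. The log2 fold change was then 6.83 for RAB18, 6.99 for AT3G15670 and 5.23 for EM6. These were the genes with the greatest excess in that library, so the values are no separate support. Without Ler × Col replicate 3, limma called 86 genes over the whole table. RAB18 was the 1 LEA member among them, at 3.19 (adjusted p = 0.0325).

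**Figure D4:**
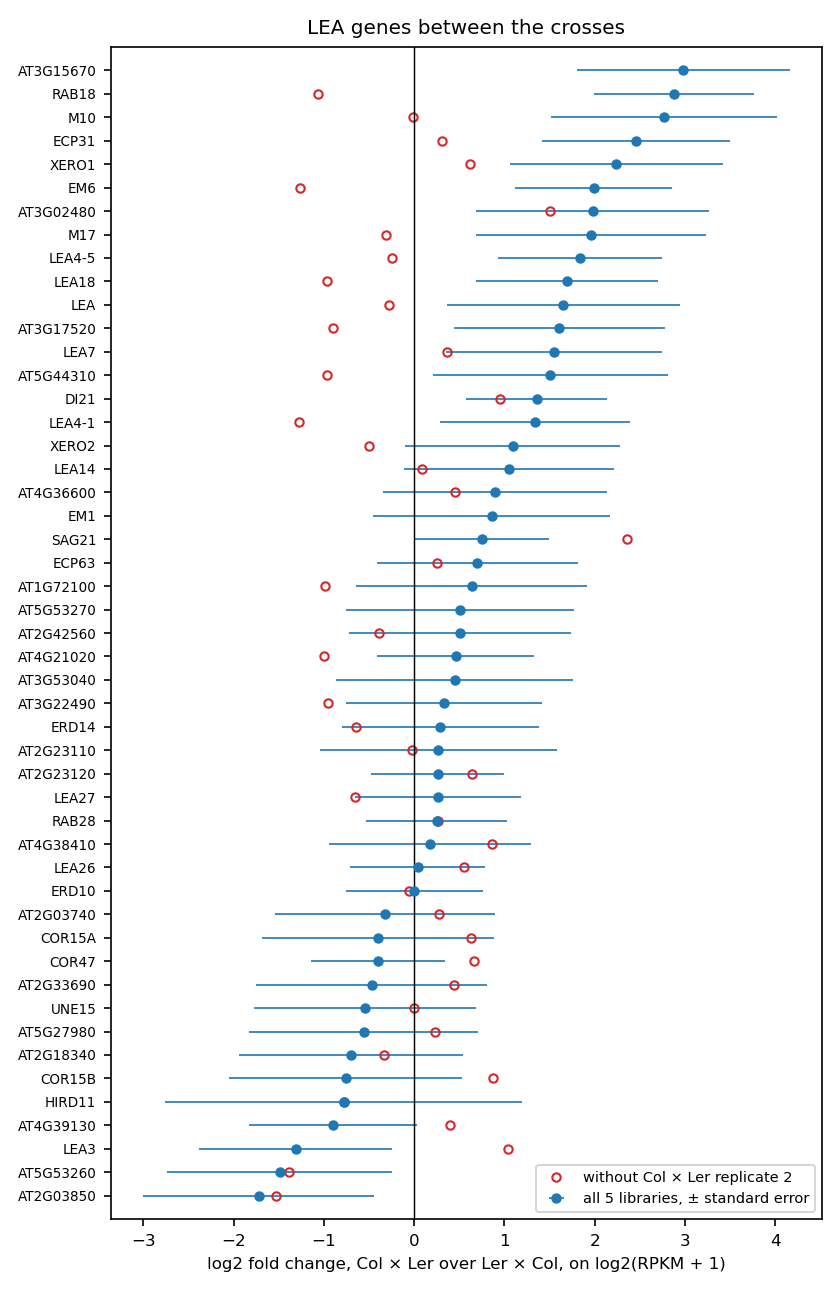
Log2 fold change of Col × Ler over Ler × Col for the 49 LEA genes tested, on log2(RPKM + 1). Filled circles with bars are limma's estimates with standard errors over all 5 libraries, open circles are estimates without Col × Ler replicate 2, which exist for 45 genes. RAB18 moves from 2.88 to -1.07.

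Sequence near the start sites was described for all members, from 250 bases before to 50 bases after the annotated gene start, on both strands and with overlapping matches counted once. ACGTG was found in 37 of 51 members (72.5%) and in 26.7% of the windows of 27431 coding genes. CCGAC was found in 21 members (41.2%) and in 15% of all windows. Windows with 2 or more ACGTG matches were seen for 26 members (51%) and for 6.18% of coding genes. ACGTG was present in all LEA_1 and LEA_5 genes, in 15 of 18 LEA_4 genes and in 8 of 10 dehydrins, but in 1 of 4 LEA_3 genes.

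The windows were then set beside the levels. Of the 10 members above 5 times in Col × Ler replicate 2, 9 had ACGTG, with a median of 3 matches, and ECP31 had none. Among the 10 members listed at 0 in that library 4 had ACGTG, with a median of 0 matches. In the windows of COR15B, LEA3, AT3G53770, AT4G13230, UNE15 and AT2G33690 neither motif was found. Of all 23 members highest in Col × Ler replicate 2, 21 had ACGTG and 14 had CCGAC. Of the 18 members neither highest in that library nor listed at 0 there, 12 had ACGTG, with a median of 1 match and up to 5. The 11 members at 5 RPKM or more in every library varied as well. COR47, ERD10, LEA26, SAG21 and AT2G23120 had no ACGTG, RAB28, HIRD11, LEA27 and DI21 had 1 match each, and ERD14 and AT4G21020 had 2. These are matches of letters, and binding was not measured.

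**Figure D5:**
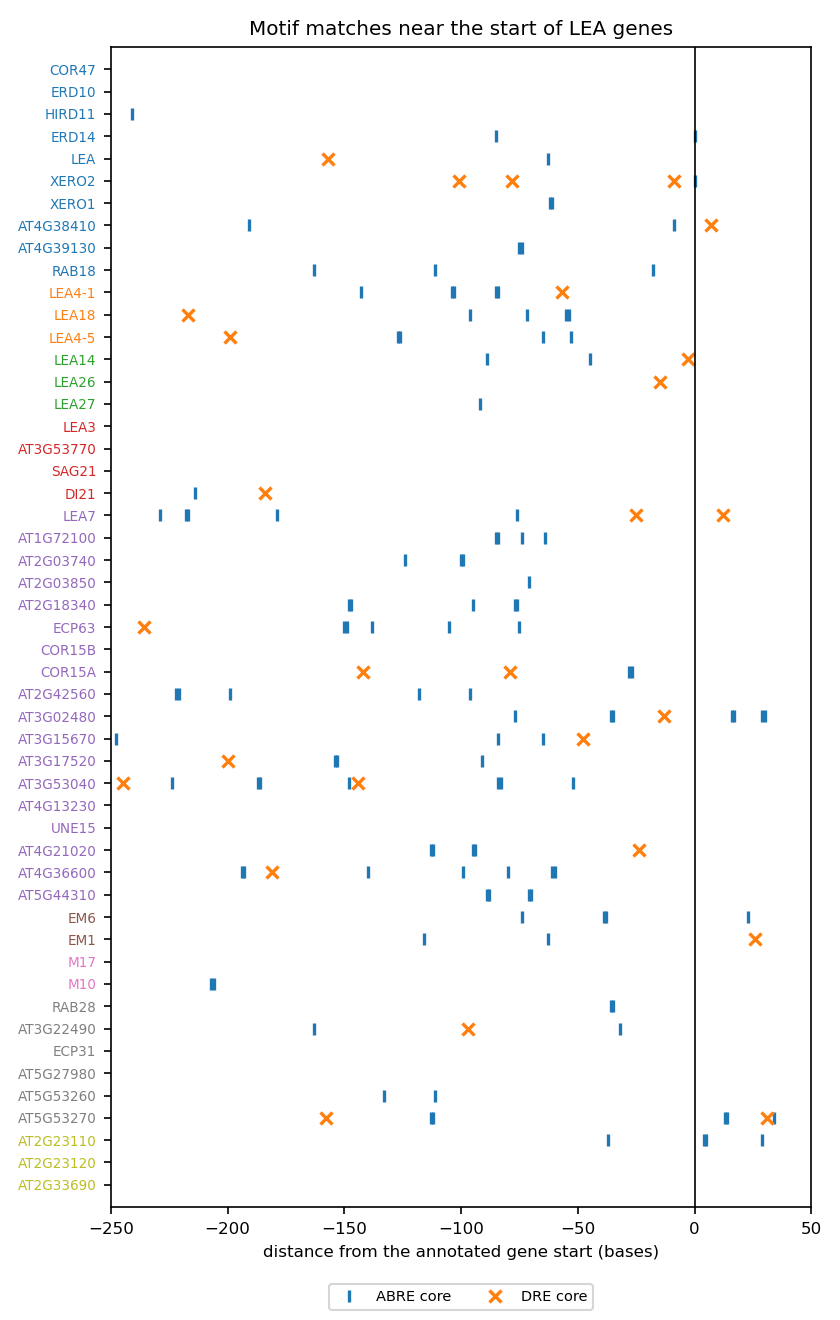
Positions of ACGTG (ABRE core, blue bars) and CCGAC (DRE core, orange crosses) in the window from 250 bases before to 50 bases after the annotated start of each LEA gene, with gene names coloured by class. LEA_1 genes carry 3 separate ACGTG matches each, and COR47 and ERD10 carry neither motif.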

How the data were processed

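The data were 1 table of RPKM values for 33602 genes in 5 RNA-seq libraries (2 of Col × Ler, 3 of Ler × Col), deposited by the authors with both alleles summed. The submitters' processing notes name TopHat2 2.1 and TAIR10, and how genes were counted is not given in the sources used here. Each column was matched to its sample by the description, and 0 columns had no sample. Counts of reads were not used, so depth was estimated from tRNA genes with fewer than 20 reads, of which between 96.8% and 98% lay on whole multiples of 1 read (tolerance 0.05 reads). It sets the precision of low values, since 1 read in a gene of 1 kb was worth 0.0797 RPKM in Col × Ler replicate 2 and between 0.035 and 0.0492 RPKM in the others.

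The crosses were compared by a two-sided test in limma 3.58.1 (R 4.3.3) on values transformed as log2(RPKM + 1), with a variance trend. Genes that reached 1 RPKM in 2 or more libraries were tested, and p-values were adjusted over them by Benjamini-Hochberg. The fit was run on simulated data, where recovery of the changed genes was required only at a spread smaller than that of these data. Its recovery at the real spread is not given here. Python 3.11.15 with pandas 2.3.3 was used for the rest. Alternatives were a pseudocount of 0.1, no filter, quantile normalization, replicate blocks, no variance trend, other RPKM limits and leaving out each library. The fold limits of 2, 5 and 10 were chosen after the data were seen. The members and gene lists were chosen with earlier results of these data known, and classes were assigned by gene family.

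Members named with every value were those with an RPKM of at least 1 in all libraries or in a single one, those with an unadjusted p under 0.05, and the 5 with the highest RPKM, 28 in all. COR15A, COR15B, LEA3, EM1, M17, AT3G17520, AT5G44310, XERO1 and AT2G03850 were named in addition after their values were seen. Of the identifiers 32835 matched RefSeq genes, all 51 members among them. Protein sequences were not used here.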

Additional observations from a re-analysis of the deposited data

How the results depend on the processing

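The number of genes called between the crosses, 2 in the fit as reported, was 7 with a pseudocount of 0.1 and 0 without the filter, with quantile normalization and without the variance trend. LEA members called stayed at 0 in these. Leaving out 1 library gave between 0 and 86 genes and between 0 and 3 LEA members (0 without Col × Ler replicate 2). The 2 libraries of each cross with shared description numbers deviated together with a correlation of 0.29 over 25579 genes, but the labels name no shared batch. With a replicate block by these numbers, where Ler × Col replicate 1 no longer counts in the contrast, 86 genes and 7 LEA members were called (AT2G21490, XERO1, AT3G02480, AT3G15670, M17, M10 and ECP31). With a block by the title numbers, 2 genes and 0 members were called. The cause was not tested.

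The median log2 fold change of the members kept its sign in every alternative except without Col × Ler replicate 2 (-0.01). It was 0.51 as reported, 1.51 without Col × Ler replicate 3, 1.46 without Ler × Col replicate 1, 0.17 without Ler × Col replicate 2, 1.38 with the block by description numbers, 0.21 with quantile normalization and 0.81 with a pseudocount of 0.1. Of the named members, COR47 (0.15), AT4G39130 (0.76) and AT5G27980 (0.40) turned direction with the block by description numbers, ERD10 (-0.32) and ERD14 (-0.21) with the block by title numbers, and ERD10 (-0.45), LEA26 (-0.44), RAB28 (-0.18) and AT2G23120 (-0.23) with quantile normalization. Without Col × Ler replicate 2, 15 of 25 named members turned direction.
Leaving out 1 library moved the log2 fold change of the members that turned over these ranges: COR47 -1.45 to 0.66, ERD10 -0.32 to 0.27, ERD14 -0.64 to 1.22, XERO2 -0.50 to 2.68, AT4G39130 -2.27 to 0.76, RAB18 -1.07 to 6.83, LEA4-1 -1.28 to 3.97, LEA18 -0.97 to 4.36, LEA4-5 -0.24 to 3.92, LEA26 -0.47 to 0.55, LEA27 -0.66 to 1.19, SAG21 -0.86 to 2.36, ECP63 -0.11 to 1.71, AT4G21020 -1.0 to 1.93, EM6 -1.26 to 5.23, M10 -0.01 to 5.56, RAB28 -0.09 to 0.58, AT3G22490 -0.95 to 1.62, AT5G27980 -1.34 to 0.40, AT2G23120 -0.12 to 0.64.

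Members seen in every library numbered 37 above 0 RPKM, 25 at 0.5 RPKM, 11 at 5 RPKM and between 23 and 30 when 1 library was left out. Those seen only in Col × Ler replicate 2 numbered 1 at 5 RPKM, between 0 and 4 when another library was left out, and 15 at 5 RPKM without Ler × Col replicate 1. The crosses had 2 and 3 libraries, the lowest depth was 12544671 reads, and the libraries were not alike over the whole table. Differences between crosses smaller than the spread between libraries were not detectable.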
